A study of Danio rerio with 73 samples.

Results

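Adult zebrafish testes that had been kept at 28 °C were compared between libraries whose titles carry the prefix 128 and libraries whose titles carry the prefix 204. The testes were chosen by the tissue, treatment and prefix in the sample labels, which gave 23 of the 73 fish of the series, 13 with prefix 128 and 10 with prefix 204. All were AB strain fish reared in the laboratory and taken at 90 days of age, and all belonged to the 28 °C arm of a study of rearing at 28 °C and 36 °C. The labels define neither prefix and name no tank or family, so the prefix cannot be told apart from any family, rearing group or library run that went with it, and each p-value reflects variation among these individual animals. DNA methylation was read by multiplex bisulfite sequencing, in which bisulfite makes unmethylated cytosine read as T while methylated cytosine still reads as C, and PCR then copies chosen stretches of DNA. The methylation level is the percent of reads that kept the C.

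In vertebrates most methylation lies on cytosines followed by guanine (CpGs). Promoters rich in CpGs are usually kept free of it, and most other CpGs carry it. In zebrafish, sperm DNA is known to be more heavily methylated than egg DNA. A testis holds germ cells of all stages together with Sertoli, Leydig and other somatic cells, so its level is an average over cells. A change in the mix of cells and a change within cells cannot be told apart in these data. The tables carry no gene names and no annotation of their GRCz10 build was used, so the covered regions are named by chromosome, and the tissue label could not be checked against marker genes.

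Depth was high in both groups. CpG read calls per fish ran from 1048465 to 11610923 (median 7091133) with prefix 128 and from 1416665 to 8521577 (median 4288439) with prefix 204, a difference of 0.148 in log10 calls (exact permutation test, two-sided p = 0.183). Between 96.7% and 99.99% of the calls of a fish lay in 20 amplicons, which hold 323 CpGs. The number of CpGs listed in a fish's table was higher with prefix 128, with a median of 1519 against 446.5 (exact permutation test, p = 0.00918). Its part in the results was not tested. Fish 20 and 22 with prefix 128 stood apart from the other 11 fish, and fish 7 with prefix 204 had a level at only 9 amplicons, so results that rest on them are given with and without them. Fish 20 and 22 were picked by their levels. Leaving them out favours a larger difference, and tests without them do not account for that choice.

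Testes with prefix 128 were the more methylated at most amplicons that carry methylation. Of 20 amplicons tested, 15 differed in level between the prefixes (75% of those tested, exact permutation test, Benjamini-Hochberg adjusted p under 0.05). The level was higher with prefix 128 at 11 of them (55%) and lower at 4 (20%). Among the amplicons that passed the exact permutation test, the direction differed with the level of the amplicon, a link that was not itself tested. All 3 amplicons with a mean level above 90% were higher with prefix 128. Of 9 amplicons of intermediate level, 8 were higher and 1, on chromosome 5, was lower. Of 8 amplicons below 5%, 0 were higher, 3 were lower and 5, with differences of either sign, did not pass the test. Those 3 differences were below 1 point, and each of the calls was lost under some alternative or with a single fish left out. The median difference was 33.3 points over the intermediate amplicons, 6.91 over the high ones and -0.318 over the low ones. The classes use the mean over all 73 fish, these testes included. A mean near either end leaves little room for a difference, so the order of these medians is in part set by the classing.

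**Figure D1:**
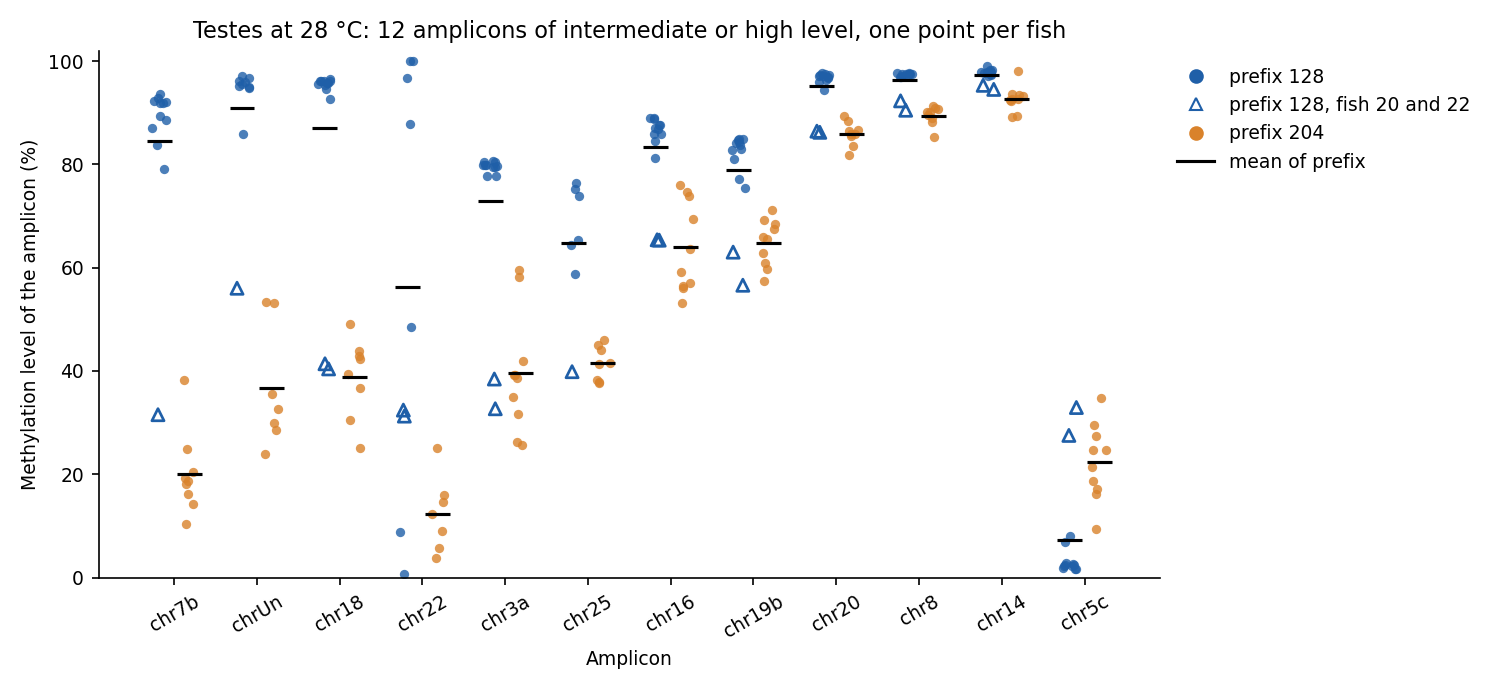
Methylation level (%, y axis) of the 12 amplicons of intermediate or high level (x axis) in testes at 28 °C, one point per fish, with the mean of each prefix as a bar. In the first 11 amplicons the mean is higher with prefix 128 and in chr5c it is lower; open triangles mark fish 20 and 22, whose levels lie mostly among those of prefix 204.

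The largest difference was at the amplicon named chr7b, on chromosome 7 from 34854540 to 34854908 with 9 CpGs. Its lowest, median and highest levels were 31.5%, 90.7% and 93.6% in 12 fish with prefix 128, and 10.5%, 18.7% and 38.3% in 9 fish with prefix 204. Only fish 20 with prefix 128 lay inside the range of prefix 204, and the other 11 lay above it, since fish 22 had no level there. The means were 84.5% ± 17.2 (SD, n = 12) and 20.1% ± 7.94 (SD, n = 9), a difference of 64.4 points (SE 5.63, exact permutation test, adjusted p = 0.000136). All 9 CpGs of chr7b passed the test in the same direction, with differences between 57.6 points at position 34854568 and 72.0 points at position 34854898.

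The amplicon chr18, on chromosome 18 from 39655137 to 39655521 with 15 CpGs, was nearly full in most testes with prefix 128. Fish 20 and 22 had 41.4% and 40.4%, and the other 11 fish lay between 92.6% and 96.6%. With prefix 204 the lowest, median and highest levels were 25.1%, 40.8% and 49.1% in 8 fish. The difference between the means was 48.4 points (SE 6.32, exact permutation test, adjusted p = 0.000267), and 56.8 points (SE 2.76, adjusted p = 3.31e-05) without fish 20 and 22. All 15 CpGs were higher with prefix 128, by 40.3 points at position 39655215 to 53.5 points at position 39655404.

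A shallow amplicon on the unplaced scaffold KN150211v1, chrUn, from 6205 to 6328 with 5 CpGs, showed the only gap between the ranges of the prefixes with all fish included (1 of 20 amplicons, 5%). The 10 fish with prefix 128 had 56.0% at the lowest, 95.3% at the median and 97.1% at the highest, and the 7 fish with prefix 204 had 24.0%, 32.6% and 53.3%. The difference was 54.1 points (SE 5.99, exact permutation test, adjusted p = 0.000257). Its median depth per CpG was 36 reads in a fish with prefix 128 and 11.5 reads with prefix 204, so single levels are coarse. All 5 CpGs passed the test, with differences from 49.8 points at 6279 to 58.0 points at 6205.

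The amplicon chr3a, on chromosome 3 from 17897376 to 17897597 with 6 CpGs, was steady among most fish with prefix 128. The other 11 lay between 77.8% and 80.7%, while fish 20 and 22 had 38.4% and 32.7%. The 10 fish with prefix 204 ranged from 25.7% to 59.5% with a median of 38.9%. The highest was fish 7, with a median of 53 reads per CpG, and the next had 58.2%. The difference between the prefixes was 33.3 points (SE 5.88, exact permutation test, adjusted p = 0.000509). The CpG with the largest difference of all was the one at 17897380 on the minus strand, with 88.4% ± 19.2 (SD, n = 13) against 13.6% ± 11.5 (SD, n = 10). Fish 22, at 40.9%, lay just below the highest fish of prefix 204, at 41.1%. Reads at this CpG cannot tell a low level from a C-to-T base change, a limit set out below.

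Of the other intermediate amplicons, chr25 (chromosome 25, 22224443 to 22224607, 8 CpGs) had a level in 7 fish with prefix 128 and 8 with prefix 204. Its levels ran from 39.9% in fish 22 to 76.4% with prefix 128 (median 65.3%) and from 37.7% to 46.0% with prefix 204 (median 41.5%). Fish 22 lay inside the range of prefix 204 and the other 6 above it. The difference was 23.3 points (SE 4.98, exact permutation test, adjusted p = 0.00186). The fish were averaged over unlike CpGs, since fish 4, 5 and 11 with prefix 128 had no level at 22224492, which was at 0% in the others.

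At chr16 (chromosome 16, 54645605 to 54645858, 19 CpGs) the lowest, median and highest levels were 65.3%, 86.9% and 89.1% with prefix 128, and 53.1%, 61.4% and 76.0% with prefix 204. The low end with prefix 128 was fish 20 and 22. The difference was 19.4 points (SE 3.60, exact permutation test, adjusted p = 0.000267). At chr19b (chromosome 19, 27434975 to 27435361, 7 CpGs) the difference was 14.04 points (SE 2.89, adjusted p = 0.0012), from 78.9% ± 9.07 (SD, n = 13) to 64.9% ± 4.49 (SD, n = 10).

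The amplicon chr22 (chromosome 22, 20736688 to 20736788, 6 CpGs) was the least even. Levels with prefix 128 covered nearly the whole scale, from 0.595% to 100% in 9 fish with a median of 48.5%, while 7 fish with prefix 204 ran from 3.80% to 25.1%. All 7 fish of prefix 204 lay inside the range of prefix 128. The difference was 43.9 points (SE 13.7, exact permutation test, adjusted p = 0.0256). Median depth was 8.5 reads per CpG in a fish with prefix 128 and 50.25 with prefix 204.

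At the 3 amplicons above 90% the differences were smaller in points. The amplicon chr20 (chromosome 20, 1252974 to 1253280, 10 CpGs) had 95.1% ± 4.00 (SD, n = 13) against 86.0% ± 2.26 (SD, n = 9), a difference of 9.18 points (SE 1.34, exact permutation test, adjusted p = 0.000267). At chr8 (chromosome 8, 29856084 to 29856417, 4 CpGs) the difference was 6.91 points (SE 0.921, adjusted p = 0.000159). At chr14 (chromosome 14, 23501841 to 23502150, 10 CpGs) it was 4.69 points (SE 0.843, adjusted p = 0.000159). Within chr14 the difference was uneven along the DNA, from 0.195 points at 23501850, which did not pass the test, to 18.3 points at 23502026.

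The amplicon chr5c, on chromosome 5 from 44344567 to 44344999 with 24 CpGs, went the other way. The 11 other fish with prefix 128 lay between 1.65% and 8.04%, and fish 20 and 22 had 27.5% and 32.9%. The 10 fish with prefix 204 ran from 9.35% to 34.7% with a median of 23.04%. Without fish 20 and 22 the ranges did not overlap. The mean difference was -15.1 points (SE 3.71, exact permutation test, adjusted p = 0.0027), and -19.2 points (SE 2.42, adjusted p = 1.42e-05) without those fish. Of its CpGs, 17 were lower with prefix 128 and 0 were higher. The largest difference, -46.8 points, was at 44344955, where 11 fish with prefix 128 lay between 2.55% and 13.1% and fish 20 and 22 at 67.1% and 77.9%, beside a median of 68.1% with prefix 204. The smallest was -1.99 points at 44344705, which did not pass the test.

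The low amplicons held little methylation in either prefix, and the 3 that passed the test differed by less than 1 point. The amplicon chr5a (chromosome 5, 23697173 to 23697500, 26 CpGs) had 0.510% ± 0.142 (SD, n = 13) against 0.737% ± 0.228 (SD, n = 9), a difference of -0.228 points (SE 0.0857, exact permutation test, adjusted p = 0.0146). At chr15 (chromosome 15, 7060346 to 7060685, 26 CpGs) the difference was -0.913 points (SE 0.686, adjusted p = 0.0459), where fish 7 with prefix 204 stood at 7.56% and the next highest fish at 1.54%. Without fish 7 it was -0.246 points and did not pass the test. At chr1 (chromosome 1, 6886521 to 6886862, 20 CpGs) it was -0.427 points (SE 0.310, adjusted p = 0.0262), and -0.124 points (adjusted p = 0.105) without fish 2 with prefix 204, which stood at 3.78%.

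Fish 7 with prefix 204 was also the highest at chr7a, at 3.94%, where the next fish had 0.857%. The amplicons chr3b (chromosome 3, 54352466 to 54352868), chr5b (chromosome 5, 34961306 to 34961660), chr5d (chromosome 5, 44400346 to 44400733), chr7a (chromosome 7, 22538693 to 22539035) and chr19a (chromosome 19, 1356464 to 1356767) did not pass the test, with differences between -0.452 and 0.102 points. In chr5d 1 CpG, at 44400346, was nevertheless lower with prefix 128, at 7.20% ± 5.46 (SD, n = 13) against 16.3% ± 3.74 (SD, n = 9). It was named after its value was seen.

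Counted over single CpGs, 111 of 319 differed between the prefixes (34.8% of those tested, exact permutation test, adjusted p under 0.05). The level was higher with prefix 128 at 85 CpGs (26.6%) and lower at 26 (8.15%). Among CpGs of intermediate amplicons 63 of 95 were higher and 20 lower, and among those of high amplicons 16 of 24 were higher and 0 lower. Of 200 CpGs in low amplicons, 6 were higher and 6 lower. Besides chr3a, the CpGs with the largest differences were in chr7b, at 34854898 (72.0 points), 34854855 (71.8 points), 34854908 (70.6 points) and 34854540 (66.2 points). At 34854540 the prefixes did not overlap, with 37.7% as the lowest fish of prefix 128 and 30.1% as the highest of prefix 204. In all, 5 of the CpGs tested had ranges that did not overlap (1.57%).

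**Figure D2:**
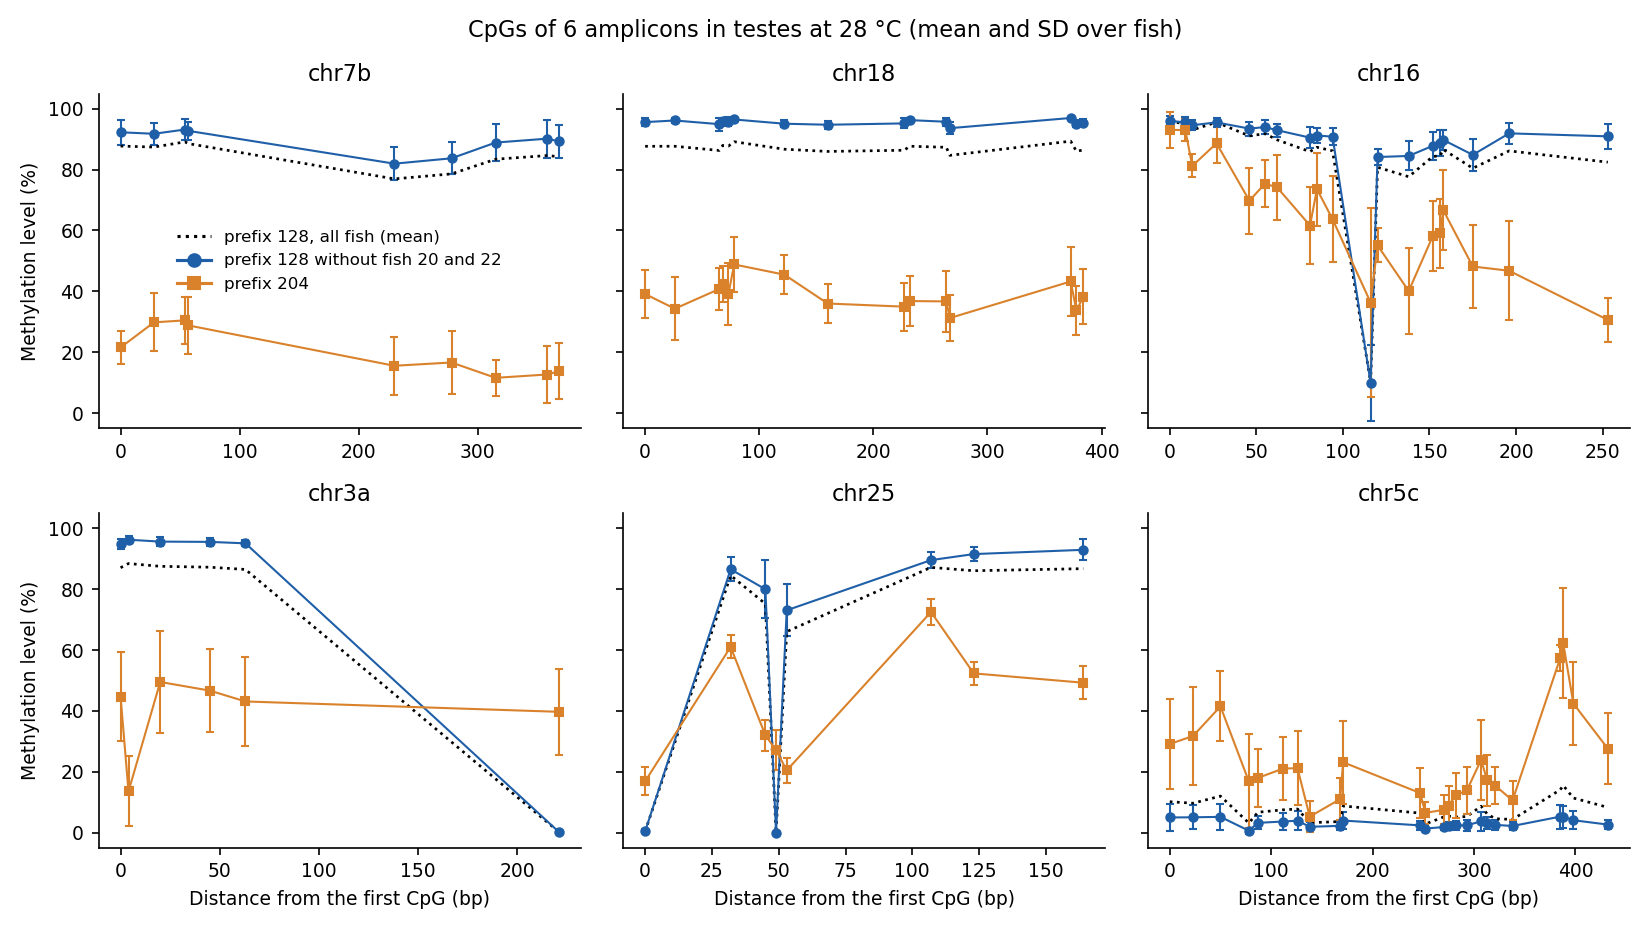
Mean methylation level (%, y axis) of each CpG against its distance from the first CpG of the amplicon (bp, x axis) in 6 amplicons of testes at 28 °C, with SD over fish as error bars. The prefixes stay apart along the whole of chr7b and chr18, lie closest at the start of chr16, and cross at single CpGs of chr16, chr3a and chr25; the dotted line is prefix 128 with fish 20 and 22 included.

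The difference was not even along every amplicon. In chr16 the first CpGs were close to full in both prefixes and the difference grew toward the far end, to 51.8 points at 54645858 (82.4% ± 21.1, SD, n = 13, against 30.6% ± 7.32, SD, n = 10). In the midst of chr16, the CpG at 54645721 went against its neighbours, at 10.2% ± 12.2 (SD, n = 13) with prefix 128 and 36.3% ± 30.9 (SD, n = 10) with prefix 204, a difference of -26.1 points (SE 10.4, exact permutation test, adjusted p = 0.028). Levels there were stepped. With prefix 128, 8 fish lay below 2% and 5 between 22.5% and 29.2%. With prefix 204 the lowest fish was at 0.154% and the highest at 81.1%. Leaving out fish 0, 3 or 9 with prefix 204 ended the call, with adjusted p up to 0.062.

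A stepped pattern was also seen at 27435059 in chr19b, the CpG with the smallest difference in that amplicon (6.41 points, SE 9.08, adjusted p = 0.714). With prefix 128 the fish had 0.243%, 0.715% and 0.651% in fish 11, 16 and 22, 26.1% in fish 20, between 45.1% and 49.96% in 8 fish and 95.6% in fish 13. With prefix 204 they ran from 0%, in fish 7 with 22 reads, to 48.1%, and the next lowest fish had 4.02%. The ranges of the prefixes overlapped.

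At 3 of the 323 CpGs, testes with a level all lay below 5% with prefix 128 and above it with prefix 204. The direction was opposite to that of the neighbouring CpGs. At 17897597 in chr3a, on the minus strand, the 13 testes with prefix 128 lay between 0.0582% and 0.488%, fish 20 and 22 included, while the 10 with prefix 204 lay between 21.3% and 68.6%. The highest was fish 7, with 35 reads, and the next had 54.9%. The difference between the prefixes was -39.4 points (SE 4.50, exact permutation test, adjusted p = 0.000197), beside differences of up to 74.9 points upward at the other CpGs of chr3a. At 22224443 in chr25, on the plus strand, 7 testes with prefix 128 lay between 0% and 1.67% and 8 with prefix 204 between 9.62% and 22.5% (difference -16.5 points, SE 1.65, exact permutation test, adjusted p = 0.000935). At 22224492 in chr25 the 4 testes with prefix 128 that had enough reads showed 0 methylated reads, which allows a level of up to 0.794% in fish 22 with 378 reads and up to 21.4% in fish 6 with 14 reads. The 8 testes with prefix 204 had 16.1% to 35.4% there, and the CpG was not tested because of the number of fish. The split CpGs were named after their values were seen.

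The same split was seen in other gonads of the series. At 17897597 the 9 ovaries at 28 °C with prefix 128 lay at or below 0.721% and the 9 with prefix 204 between 32.9% and 45.0%. At 36 °C, 11 of 12 testes with prefix 128 lay below 5% and 1, at 48.7%, did not, and 8 testes with prefix 204 lay between 39.1% and 80.6%. At 22224443 the ovaries at 28 °C with prefix 128 reached 1.02% and those with prefix 204 started at 12.6%. Bisulfite reads cannot tell an unmethylated cytosine from a C-to-T base change in the fish's DNA, so the 2 cannot be told apart at these CpGs. The same limit holds at the stepped CpGs at 54645721 in chr16 and 27435059 in chr19b. Leaving the 3 split CpGs out of their amplicons, with the stepped CpGs kept, left 15 amplicons called.

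**Figure D3:**
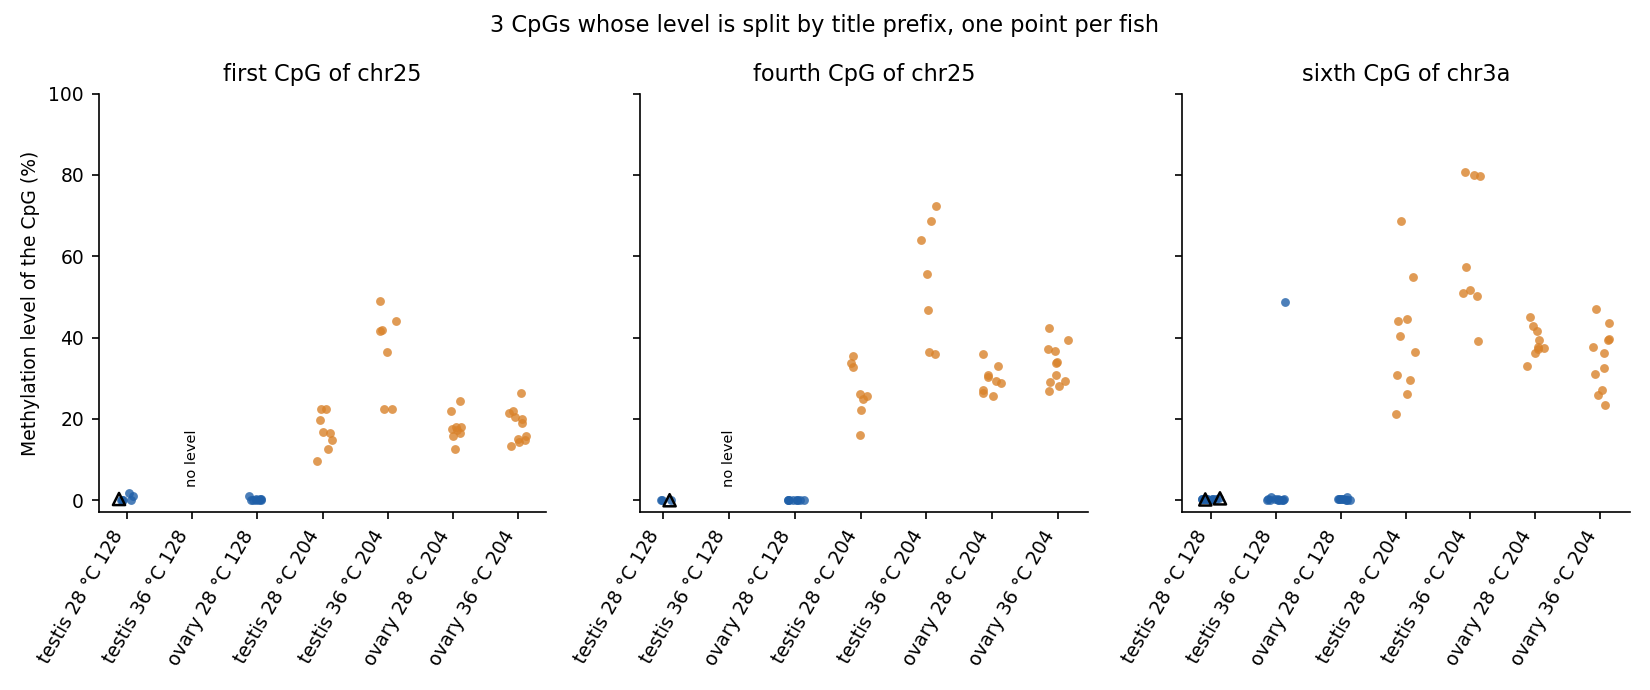
Methylation level (%, y axis) of 3 CpGs in every fish with a level, by tissue, temperature and prefix (x axis); open triangles mark fish 20 and 22 of the 28 °C testes where they have a level. Prefix 128 lies at or near 0% and prefix 204 above it in each tissue, except for 1 testis at 36 °C with prefix 128 at 48.7%, and no testis at 36 °C with prefix 128 had a level at the CpGs of chr25.

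Fish 20 and 22 with prefix 128 lay among the testes with prefix 204 at most amplicons that carry methylation. Of the intermediate and high amplicons with a level, fish 20 was inside the range of prefix 204 at 8 of 10 and fish 22 at 8 of 11. Each of the other 11 fish was inside that range at 1 amplicon at most. Measured over all amplicons as the mean absolute difference in level between a pair of fish, fish 20 and 22 were 1.47 points apart. Their distance to the other 11 fish of their prefix had a median of 14.9 points, and to the 10 fish with prefix 204 a median of 4.28 points (4.05 without fish 7). At the split CpG at 17897597 both fish had the level of prefix 128, and so did fish 22 at the 2 split CpGs of chr25, where fish 20 had no level. The split CpGs were picked because all testes with prefix 128 lay below 5% there, so this outcome was set by that choice.

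The remaining 11 fish with prefix 128 were close to one another, with a median distance of 1.56 points over 55 pairs. Pairs within prefix 204 had a median of 4.55 points over 45 pairs, and 4.07 over 36 pairs without fish 7, whose distances rest on its 9 amplicons. Pairs across the prefixes, again without fish 20 and 22, had a median of 17.5 points, and 17.8 without fish 7. The mean distance of fish 20 and 22 to the ovaries at 28 °C was 3.44 and 3.66 points with prefix 204, and 4.15 and 4.445 with prefix 128. To the testes with prefix 204 it was 4.30 and 4.90 points. The testes with prefix 204 averaged 2.65 to 6.74 points from the ovaries with that prefix. From the other testes with prefix 204 they averaged 3.89 to 7.615 points, and each was nearer on average to those ovaries. The other 11 testes with prefix 128 were at 15.9 points or more from the ovaries with prefix 204, and at 15.6 or more from those with prefix 128. All these distances describe the fish and were not tested.

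One value per fish over the panel summarised the level, as its average deviation, across amplicons, from the mean of the 73 fish at each. It ran from -3.69 to 12.3 points with prefix 128 (median 8.52) and from -9.04 to -2.17 with prefix 204 (median -6.35). The only overlap came from fish 20 and 22, at -3.28 and -3.69. Fish were averaged over unlike sets, of 18 to 20 amplicons with prefix 128 and 9 to 20 with prefix 204. The value of fish 7 with prefix 204, -2.92, rests on 9 amplicons, without chr7b or chr18. The difference was 13.6 points (SE 1.63, exact permutation test, two-sided p = 1.22e-05), and 15.6 points (SE 0.990, p = 2.83e-06, the smallest the splits can give) without fish 20 and 22. These 2 fish were left out for their levels, a choice that the second p does not account for. Leaving out any single fish, fish 7 with prefix 204 among them, gave a difference between 13.2 and 14.5 points. Within a prefix, depth showed no relation to the panel value that passed a test (log10 calls, Pearson r = -0.150 and Spearman rho = -0.154 over 13 fish with prefix 128, and r = 0.136 and rho = 0.0909 over 10 with prefix 204, permutation test, lowest p = 0.583, adjusted p = 0.812 over 4 relations). Without the 2 fish farthest from the median depth r was -0.400 and 0.270.

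The spread between fish was compared as the mean absolute deviation from the median of the own prefix, with an exact permutation test of its difference. With all fish, 1 of 20 amplicons passed (5%), chr22, where the deviation was 34.6 points with prefix 128 and 5.32 with prefix 204 (adjusted p = 0.0490). Depth was unlike there, with a median of 8.5 reads per CpG with prefix 128 and 50.25 with prefix 204. Of 319 CpGs, 3 passed (0.94%), all narrower with prefix 128. They were 17897597 in chr3a, with a deviation of 0.104 against 10.8 points, 54645632 in chr16, with 1.36 against 5.88 points, and 7060632 in chr15, with 0.209 against 1.72 points, all 3 named after their values were seen. With single fish left out the counts ran from 0 to 2 amplicons and from 1 to 11 CpGs.

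The spread with prefix 128 was smaller without fish 20 and 22 at the intermediate and high amplicons, chr22 excepted. At chr18 the SD was 20.6 points with them and 1.12 without them, beside 7.75 with prefix 204, and at chr3a it was 16.6, 0.972 and 11.6 points. These 2 fish were left out because their levels stood apart, which favours a narrower spread with prefix 128, and the test does not account for that choice, so the counts that follow are a description. Without these fish, 7 of 20 amplicons passed (35%). Of these, 6 (chr16, chr18, chr3a, chr5c, chr5a and chr8) were narrower with prefix 128, 30% of those tested, and chr25 was wider. The deviation at chr18 was then 0.693 against 5.77 points, and at chr5c 1.22 against 5.82 points. At chr25, with 6 and 8 fish, it was 6.18 against 2.67 points. Fish 4, 5 and 11, without a level at 22224492, stood at 73.8%, 75.2% and 76.4% at chr25. Fish 1, 2 and 6, with 0% at that CpG, stood at 64.3%, 58.75% and 65.3%. The part of these unlike sets of CpGs in the wider spread was not tested. Of the CpGs, 90 of 319 passed (28.2%), 81 of them narrower with prefix 128 (25.4%).

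These counts depend on the scale as well as on the fish. A level near 0% or 100% has less room to vary in points, and most testes with prefix 128 lie there. On the logit scale, which stretches the ends, 0 amplicons and 0 CpGs passed with all fish, with 3 and 31 at an unadjusted p under 0.05. Without fish 20 and 22, 2 amplicons and 0 CpGs passed on that scale, with 2 and 38 at an unadjusted p under 0.05, and both amplicons were wider with prefix 128.

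**Figure D4:**
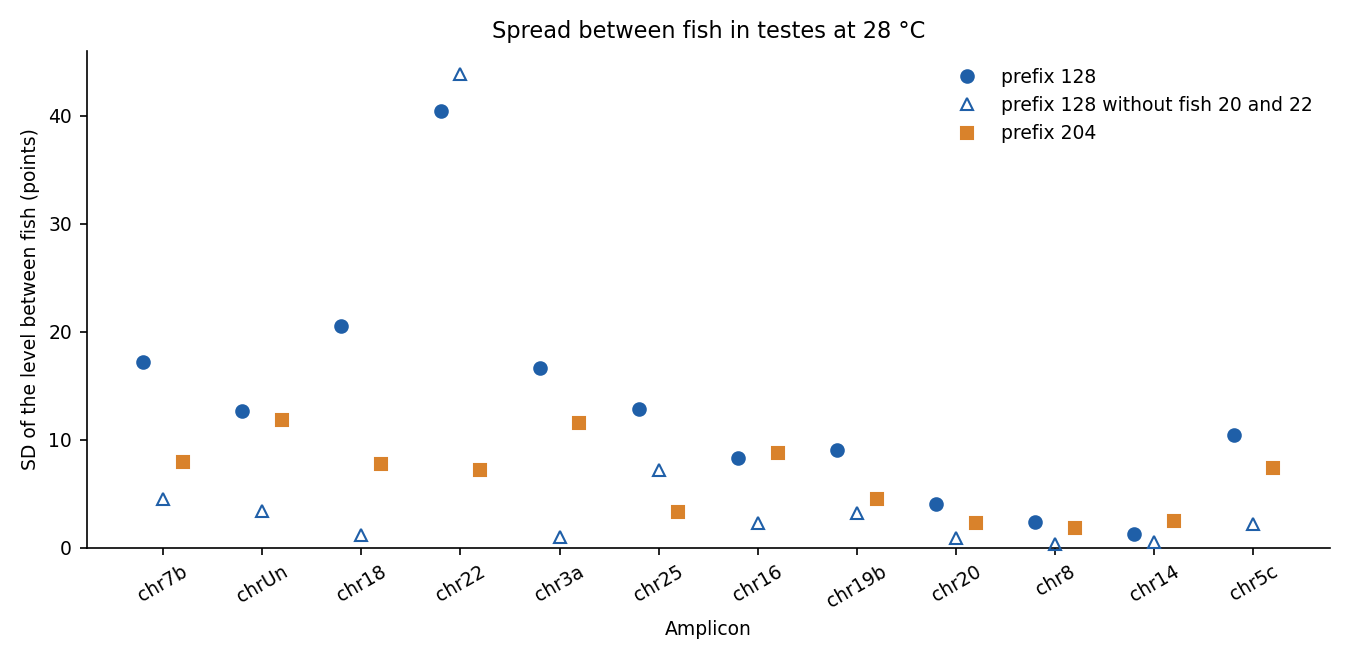
Standard deviation of the level between fish (points, y axis) at the 12 amplicons of intermediate or high level (x axis) in testes at 28 °C. Filled circles are all fish with prefix 128, open triangles the same without fish 20 and 22, and squares prefix 204; at chr18 the values are 20.6, 1.12 and 7.75 points.

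Without fish 20 and 22 the level calls were 14 amplicons of 20 (70%) and 126 of 319 CpGs (39.5%). The call at chr15 was lost (adjusted p = 0.0529), and the ranges of the prefixes no longer overlapped at 10 amplicons (50%) and at 72 CpGs (22.6%). These fish were left out because their levels lay mostly among those of prefix 204. That choice favours larger differences and less overlap, so these counts are a description. At chr7b the 11 fish left with prefix 128 lay between 79.0% and 93.6%, and at chr16 between 81.3% and 89.1%, above the highest fish with prefix 204 at 38.3% and 76.0%.

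The difference between the prefixes was not the same in all gonads of the series. In ovaries at 28 °C, 9 fish with each prefix, 1 of 18 amplicons passed (5.56%), chr19a, with a difference of 0.185 points, and 11 of 294 CpGs passed (3.74%). The change in the prefix difference from ovary to testis was tested at 20 amplicons by permuting residuals under the additive model. It passed at 11 (55%), higher in testis at 10 and lower at chr5c. At chr5c and at chrUn only 4 ovaries with prefix 204 had a level, so the prefixes were not tested within ovary there. At chr7b the ovaries had 24.3% ± 13.6 (SD, n = 5) with prefix 128 and 23.6% ± 5.56 (SD, n = 9) with prefix 204, and the prefix difference was 63.7 points larger in testis (SE 8.51, permutation test, p = 1e-05, the smallest the resamples can give, adjusted p = 1e-04). At chr18 the ovaries had 30.5% ± 12.1 (SD, n = 8) and 32.4% ± 6.13 (SD, n = 9), and the prefix difference was 50.3 points larger in testis (SE 7.90, adjusted p = 1e-04). The spreads of the groups differ widely, which this test does not model.

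Over 290 CpGs tested in both tissues, 89 were called in testis and 10 in ovary, and 4 were called in both, all in the same direction. They make up 4 of the 89 and 4 of the 10. Over all CpGs tested, 34.8% were called in testis and 3.74% in ovary, so an overlap of this size is near what those shares give. Of the 4 called in both, 17897380 in chr3a was higher with prefix 128 in ovary too, at 40.3% ± 16.5 (SD, n = 9) against 8.74% ± 0.850 (SD, n = 9). The others were 17897597 in chr3a, 22224443 in chr25 and 1356602 in chr19a. All 4 were named after their values were seen.

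In testes at 36 °C, 12 fish with prefix 128 and 8 with prefix 204, 13 of 18 amplicons passed (72.2%), with 5 higher and 8 lower with prefix 128. The higher ones were chr7b (19.7 points), chr18 (14.6), chr3a (10.6), chr8 (2.16) and the low amplicon chr5d (1.49). Of the lower ones, chr5c had -6.21 points. The rest were low amplicons, with differences between -1.48 points at chr5b and -0.146 points at chr19a. Over the CpGs 109 of 310 passed (35.2%), 38 higher and 71 lower. Over 310 CpGs tested at both temperatures, 103 were called at 28 °C and 109 at 36 °C, with 47 in both in the same direction and 5 in opposite directions. Over all CpGs tested, 34.8% were called at 28 °C and 35.2% at 36 °C. Whether the overlap exceeds what those shares give was not tested. No fish was shared between the temperatures. The prefix difference changed between the temperatures at 12 of 19 amplicons (63.2%), each larger or more positive at 28 °C.

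Mean levels with prefix 204 were higher at 36 °C than at 28 °C at chr7b, chr18 and chrUn, and those with prefix 128 moved by less, a contrast between temperatures that was not tested within a prefix here. At chr7b the testes at 36 °C had 89.3% ± 3.54 (SD, n = 11) with prefix 128 and 69.7% ± 31.8 (SD, n = 8) with prefix 204, and the prefix difference was 44.8 points larger at 28 °C (SE 12.6, permutation test, adjusted p = 0.002). At chr18 the levels at 36 °C were 95.8% ± 1.14 (SD, n = 12) and 81.2% ± 24.4 (SD, n = 8), and the prefix difference was 33.8 points larger at 28 °C (SE 10.7, adjusted p = 0.00709). At chrUn they were 93.4% ± 4.27 (SD, n = 11) and 96.2% ± 2.59 (SD, n = 6), and the prefix difference was 56.9 points larger at 28 °C (SE 6.22, adjusted p = 0.00019). At chr5c the change between the temperatures did not pass (-8.86 points, SE 4.87, adjusted p = 0.119).

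**Figure D5:**
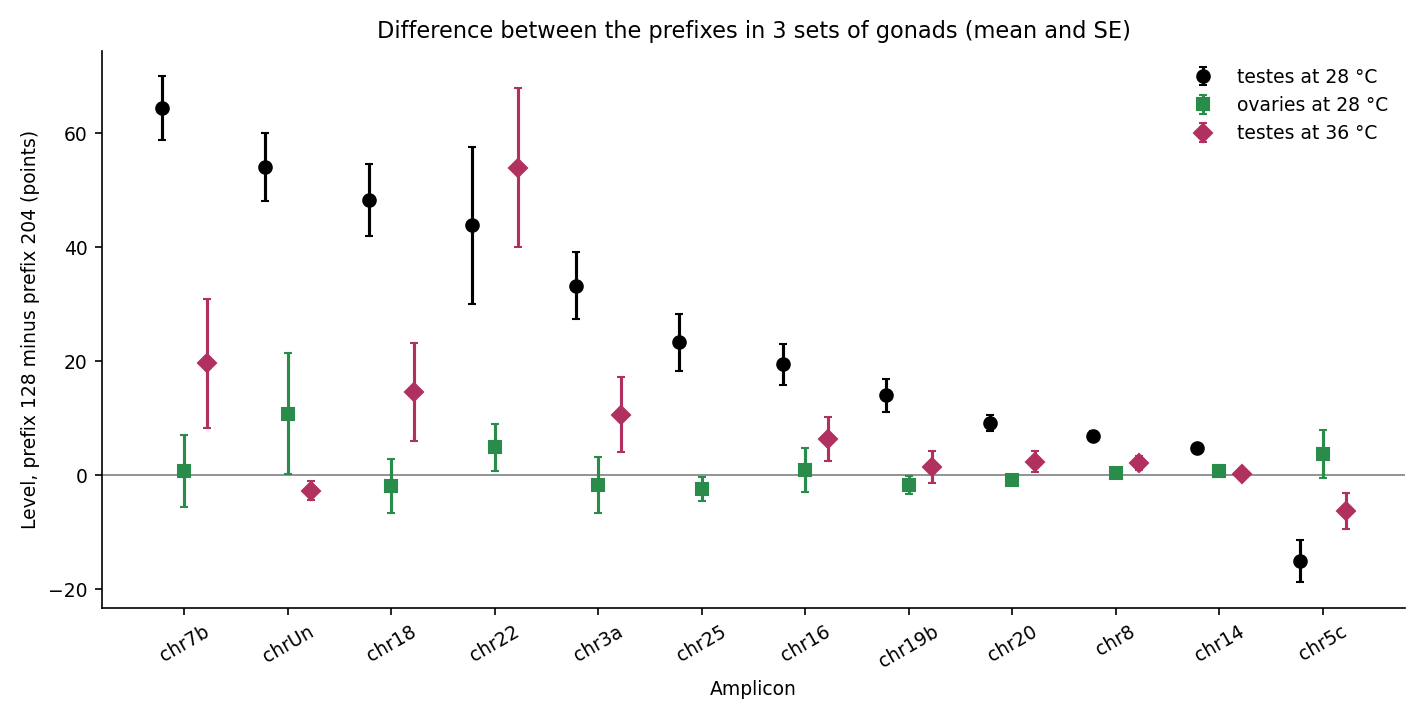
Difference in mean level between the prefixes (128 minus 204, points, y axis) at the 12 amplicons of intermediate or high level (x axis) in testes at 28 °C, ovaries at 28 °C and testes at 36 °C, with the standard error as the bar. The differences in testes at 28 °C are farther from 0 than those in the other gonads at most amplicons, with chr22 in testes at 36 °C as an exception and no value for chr25 there.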

How the data were processed

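Bisulfite-treated testis DNA went through a multiplex amplicon protocol and was read on an Illumina HiSeq, per the labels' protocols. For each fish the authors deposited a table of read counts per CpG, methylated and unmethylated, which are whole numbers and not normalized. Reads were handled with Bismark 16.0, Bowtie2, FastQC 0.11.6 and Trim Galore 0.4.5 on build GRCz10, per the submitters' processing notes. Removal of PCR duplicates is not given in the sources used here, and reads carry no molecular identifiers, so limits from counts cover counting error only.

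A CpG's level was its share of methylated reads in percent, given a minimum of 10 reads. A CpG entered if 50% or more of the 73 fish reached this minimum (324 of 25217), and runs of 2 or more CpGs with gaps up to 200 bp formed amplicons. An amplicon's level averaged its CpGs, provided that at least 50% had a level. Coordinates are 1-based on GRCz10. Amplicons were called low below 5% and high above 90%, bounds set after levels were seen.

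Prefixes were compared by two-sided exact permutation tests over every split of the fish (up to 1144066, at least 5 fish per prefix), adjusted by Benjamini-Hochberg over all features tested at 0.05. Spread used absolute deviations from the prefix's median. Interactions used 100000 resamples of residuals (smallest p 1e-05) and at least 3 fish per group. Alternatives used limma 3.58.1 in R 4.3.3 and a quasi-binomial model. The tests were also run on simulated fish, whose CpGs varied independently and whose changed spreads lay around a middle level. Those runs do not show how the spread test behaves near the ends of the scale or where fish shift together. The same fish numbers, 2 and 5, occur under both prefixes and gave correlations of deviations of 0.347 and -0.164. Pairing was not tested, and these fish were not taken as pairs. No libraries held identical counts (0 pairs).

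The members and lists were chosen with earlier results of these data known. All amplicons are accounted for, those past the threshold with values and the 10 with the largest difference in full. CpGs named are the 5 with the largest difference, and the largest and smallest of an amplicon past the threshold. The split CpGs, including 22224492, and those at 44400346, 54645632, 54645721, 7060632 and 1356602 were named after their values were seen. Gene lists could not be applied, since no amplicon could be given a gene name, and the planned match of amplicons to promoters was not run.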

Additional observations from a re-analysis of the deposited data

Results flagged for a closer look

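In 23 groups of 4 to 10 fish, 5 had 1 fish far from the rest. Chance alone gives this in about 1 in 20 groups if levels are normally spread, which was not checked. Groups of more than 10 fish, which are most of those with prefix 128, were not screened. With prefix 204, fish 2 stood at 98.1% at chr14, where the next fish had 93.7%, and at 3.78% at chr1, where the next had 1.02%. Fish 7 with prefix 204 stood at 7.56% at chr15 (next 1.54%) and at 3.94% at chr7a (next 0.857%). With prefix 128, fish 22 stood at 56.0% at chrUn, where the next lowest had 85.9%.

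The difference between the prefixes was not the same in testis and ovary at 28 °C at 11 amplicons (permutation test of the change, adjusted p under 0.05). From ovary to testis it rose by 63.7 points at chr7b, 50.3 at chr18, 43.3 at chrUn, 35.1 at chr3a, 25.7 at chr25, 18.5 at chr16, 15.7 at chr19b, 10.1 at chr20, 6.50 at chr8 and 3.93 at chr14. At chr5c the change was -18.8 points. The changes at chr5c and chrUn rest on 4 ovaries with prefix 204. The highest adjusted p among them was 0.0123, at chr5c.

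Between testes at 28 °C and at 36 °C the prefix difference changed at 12 amplicons. It was larger at 28 °C by 56.9 points at chrUn, 44.8 at chr7b, 33.8 at chr18, 22.7 at chr3a, 13.1 at chr16, 12.6 at chr19b, 6.80 at chr20, 4.75 at chr8 and 4.53 at chr14. Among the low amplicons the changes were 1.59 points at chr5b, 0.466 at chr3b and 0.227 at chr19a, where the prefix difference at 36 °C was below 0. At chr5b the testes at 36 °C with prefix 204 had an SD of 3.39 points around a mean of 1.86%. The highest adjusted p was 0.0207, at chr19a.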

How the results depend on the processing

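The number of amplicons that differed in level lay between 12 and 16, of 17 to 21 tested, under all alternatives except the replicate block. That of CpGs lay between 96 and 139. At a minimum of 30 or 100 reads 9 of 18 amplicons were higher with prefix 128, and with CpGs covered in 80% of fish 8 of 17. The panel difference was then 10.62, 10.78 and 10.35 points. Leaving out each fish in turn gave 13 to 15 amplicons, 104 to 125 CpGs and a panel difference of 13.2 to 14.5 points. Changes in the prefix difference passed at 11 to 13 amplicons against ovary and 10 to 14 against 36 °C. The counts for spread moved more. For amplicons they were 0 with a minimum of 5, 30 or 100 reads, with CpGs covered in 80% of fish and on the logit scale, 7 without fish 20 and 22, 2 on the logit scale without them, and 0 to 2 with single fish left out. At a minimum of 5, 30 and 100 reads and in 80% of fish, 3, 2, 2 and 3 amplicons had an unadjusted p under 0.05. For CpGs they were 14 at 100 reads, 90 without fish 20 and 22, 0 on the logit scale with or without them, and 1 to 11 with single fish left out. The logit scale without those fish, and leaving out CpGs split by prefix, were chosen after seeing the data.

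With the shared fish numbers as a replicate block in limma, which rests on few pairs, 1 of 15 amplicons and 0 of 273 CpGs passed, with 4 and 45 at an unadjusted p under 0.05. The correlations given above for these numbers were not tested and cannot settle whether the numbers pair the fish. Under the block, chr15 changed sign to 0.168 points, the CpG at 44344705 to 1.61 and that at 23501850 to -2.20 points. The last also reversed without fish 3 with prefix 204 (-0.146 points, and up to 0.428 without any other single fish), in limma on logit levels (-0.454) and in the quasi-binomial model (-0.0519), and 27435059 reversed on logit levels (-0.163). None of these 4 passed the test under those settings. At 5 reads chr5d was 0.264 points. The cause was not tested.

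Calls at chr1 and chr15 were lost in limma and in the quasi-binomial model, chr5a with depth as a covariate, and chr25 in the quasi-binomial model. Calls were also gained. In the exact permutation test chr19a passed without fish 3 with prefix 204 (adjusted p = 0.032) and chr5b without fish 21 with prefix 128 (adjusted p = 0.0408). In limma on logit levels chr5d was called lower. The quasi-binomial model called 12 amplicons higher and 2 lower, and pooled counts over an amplicon 11 and 5, beside 11 and 4 above. The call at chr15 was lost in 17 of 23 fish left out in turn, and that at 20736788 in chr22 in 6. Depth limits chr22, chr25 and chrUn most.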
